A study of Mus musculus with 13 samples.

Results

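Receptors that let CD8+ T cells respond to interleukin 12 (IL-12), interleukin 18 (IL-18), interferon gamma, interleukin 10 (IL-10) and interleukin 6 (IL-6) were followed by the genes of 9 receptor chains, Il12rb1, Il12rb2, Il18r1, Il18rap, Ifngr1, Ifngr2, Il10ra, Il6st and Il6ra. They were chosen by gene symbol as every probe set assigned to one of these names, which gave 17 of the 45101 probe sets on the array, and they are 9 of the 18194 genes tested. RNA was measured on 13 oligonucleotide arrays of CD8+ T cells from P14 mice, all on the C57Bl/6 background, whose transgenic T cell receptor gives most CD8+ T cells a single specificity. The groups were naive cells at day 0 from wild-type P14 mice (2 arrays) and from BATF-/- P14 mice (3 arrays), and cells of either genotype after 3 days in culture on plate-bound anti-CD3 and anti-CD28, with recombinant human IL-2 at 100 U/ml (4 arrays each). Batf, the gene deleted in BATF-/- mice, codes for an AP-1 family transcription factor of activated lymphocytes. The naive cells were taken from the mice by magnetic negative selection without culture, so that the stimulated cells differ from them by activation, IL-2 and time in culture together. No IL-12, IL-18, interferon or IL-6 was named among the additions to the culture.

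Each of these receptors works as a pair of chains. Il12rb1 and Il12rb2 form the IL-12 receptor, which signals through Tyk2, Jak2 and Stat4, and Il12rb1 also serves the receptor for IL-23. Il18r1 binds IL-18 and Il18rap is the accessory chain needed for signalling through the adaptor Myd88, and IL-12 and IL-18 together are known to drive interferon gamma production by effector CD8+ T cells. Ifngr1 binds interferon gamma and Ifngr2 is the chain that brings Jak2 to the complex. Il10ra binds IL-10 and pairs with the widely expressed Il10rb, while Il6st, also called gp130, is the signalling chain shared by IL-6, Lif, Osm and IL-27, to which Il6ra gives specificity for IL-6. Naive T cells are known to carry the IL-6 receptor and to lose it on activation.

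Values are log2 intensities of the brightest probe set of a gene, and differences are log2 differences with their standard error (SE) from 1 limma model of all 13 arrays. A gene is called when its p-value, adjusted with the Benjamini-Hochberg method over all 18194 genes, is below 0.05. Levels of different genes cannot be set against each other on arrays. Whether the arrays within a group stem from different mice or cultures is not given in the sources used here, so p-values measure the spread between arrays, which may be technical. Median intensities lay between 31.5 and 32.5 in all arrays. Batf had a mean of 9.275 in the naive wild-type group and 5.87 in the naive Batf-/- group, and of 8.86 and 5.985 at day 3. The mean over 6 CD8 T cell markers (Cd8a, Cd8b1, Cd3e, Cd3d, Cd3g and Cd2) lay between 11.67 and 12.23 in all arrays, and that of 4 CD4 T cell markers between 4.67 and 5.21, where 4.35 marks the lowest 40% of probe sets. The CD4 mean was slightly higher at day 3 than in naive arrays. Lists of B cell, NK cell, neutrophil, monocyte and macrophage and platelet markers were lower at day 3, and 1 library, Batf-/- naive replicate 1, stood apart with a mean over 6 neutrophil markers of 8.56 against 4.66 to 5.83 in the other naive arrays and 3.97 to 4.08 at day 3. In bulk RNA, fewer cells of a type and less RNA per cell cannot be told apart.

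Stimulation changed all 9 receptor genes in both genotypes. Il12rb2, Il10ra, Il12rb1, Il18rap, Il18r1 and Ifngr1 rose, and Il6ra, Il6st and Ifngr2 fell. Both chains of the IL-12 receptor and both chains of the IL-18 receptor rose, both chains of the IL-6 receptor fell, and the chains of the interferon gamma receptor moved in opposite directions. The background of this count is high: 45.4% of all genes were called between naive and day 3 arrays in wild type and 47% in Batf-/- cells, with 22.4% and 23.8% higher and 23% and 23.2% lower. The median difference of the 9 genes was 0.915 in wild type and 0.72 in Batf-/- cells, against 0.05 and 0.05 over all genes. Naive and day 3 arrays did not overlap for any of the 9 genes in either genotype, as was the case for 58.3% of all genes in wild type and 48.2% in Batf-/- cells.

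**Figure D1:**
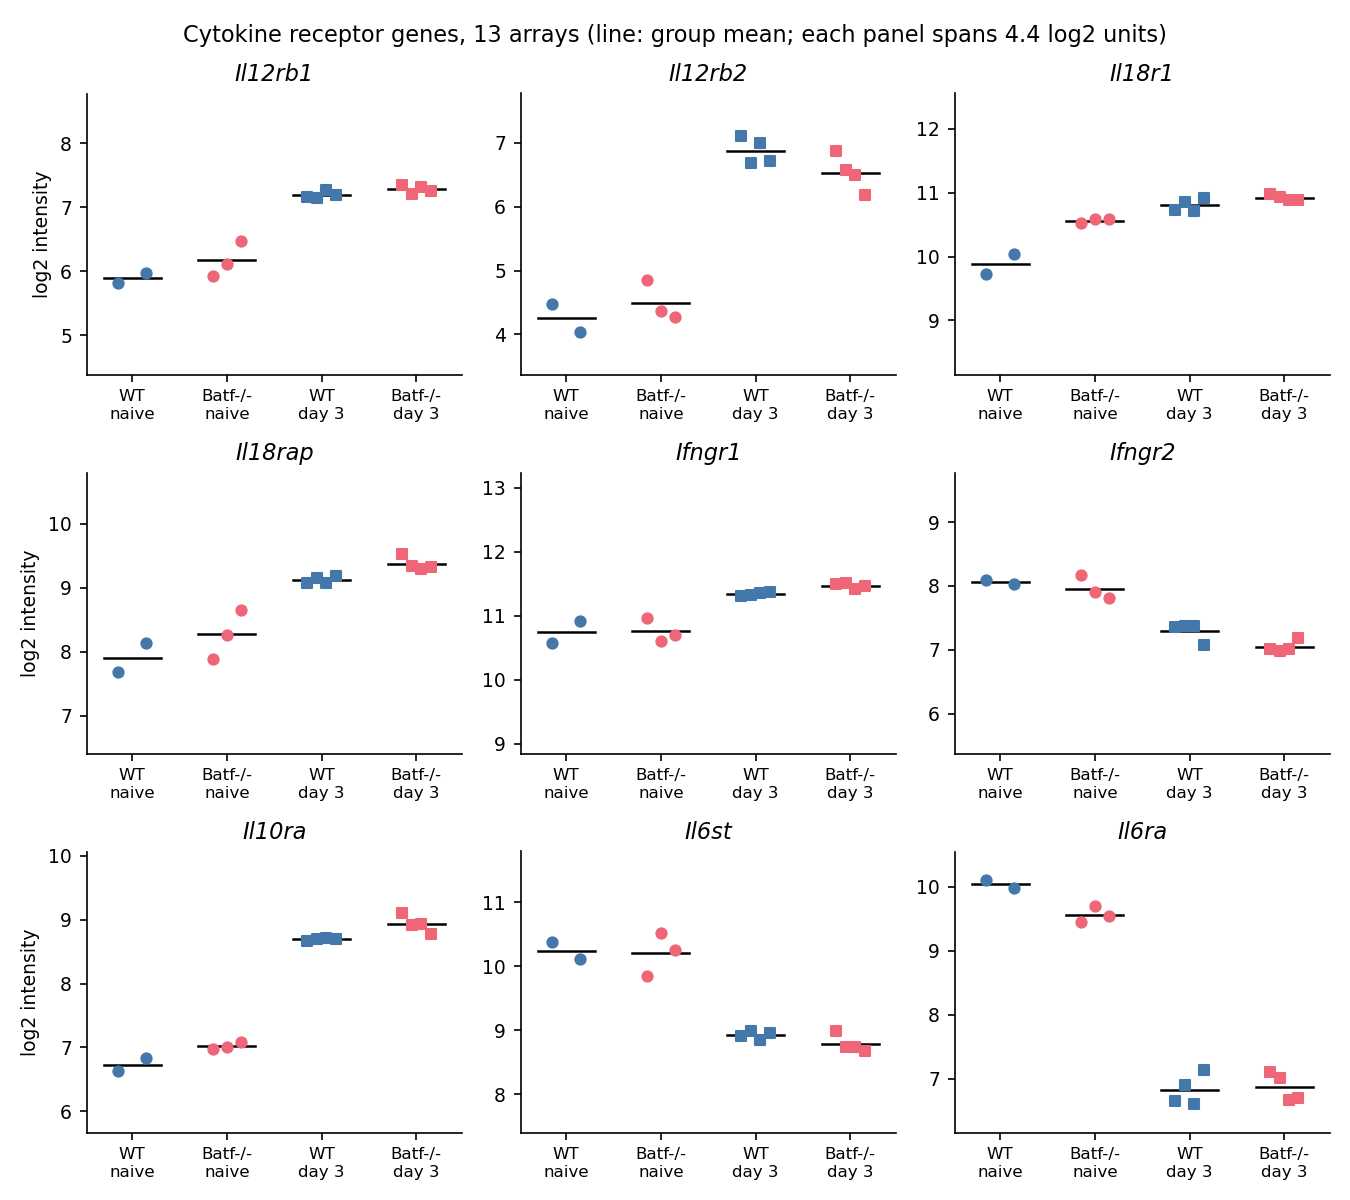
Log2 intensity of the 9 receptor genes in every array, by group, with a line at the group mean and the same span on every vertical axis. Naive and day 3 arrays were separated for all 9 genes in both genotypes, with the largest distance for Il6ra and Il12rb2, and the genotypes were separated clearly for Il18r1 in naive arrays.

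The promoters of the genes with the largest rise (Il12rb2), the largest fall (Il6ra) and the genotype difference described further on (Il18r1) are shown here because AP-1 factors and the STAT proteins used by these receptors bind known letters. Windows run from 250 bases before to 50 bases after an annotated start, from RefSeq on build GRCm38.p6, on the strand of the gene. A total of 7 of the 9 genes matched, with 9 windows, Il18r1 having 3 starts. Searched on both strands were the AP-1 motif TGANTCA, the gamma-activated site TTCNNNGAA bound by STAT proteins, the T-box motif GGTGTGA and the composite AP-1 and IRF motif, in which an AP-1 motif stands next to a site for interferon regulatory factors. Capitals mark matches to the gamma-activated site.
Il12rb2, chr6:67376139-67376438, - strand: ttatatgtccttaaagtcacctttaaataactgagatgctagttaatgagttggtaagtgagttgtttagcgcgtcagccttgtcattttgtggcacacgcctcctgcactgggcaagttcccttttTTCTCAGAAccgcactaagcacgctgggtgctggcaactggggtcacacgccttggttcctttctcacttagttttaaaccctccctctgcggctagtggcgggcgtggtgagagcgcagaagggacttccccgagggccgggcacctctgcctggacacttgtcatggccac
Il18r1, chr1:40465756-40466055, + strand: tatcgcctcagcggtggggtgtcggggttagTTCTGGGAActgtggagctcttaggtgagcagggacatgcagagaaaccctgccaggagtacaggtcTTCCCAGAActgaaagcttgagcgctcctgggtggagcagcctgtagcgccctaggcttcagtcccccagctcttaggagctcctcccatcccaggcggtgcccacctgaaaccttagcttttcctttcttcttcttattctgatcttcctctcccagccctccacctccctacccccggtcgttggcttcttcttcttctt
Il6ra, chr3:89913147-89913446, - strand: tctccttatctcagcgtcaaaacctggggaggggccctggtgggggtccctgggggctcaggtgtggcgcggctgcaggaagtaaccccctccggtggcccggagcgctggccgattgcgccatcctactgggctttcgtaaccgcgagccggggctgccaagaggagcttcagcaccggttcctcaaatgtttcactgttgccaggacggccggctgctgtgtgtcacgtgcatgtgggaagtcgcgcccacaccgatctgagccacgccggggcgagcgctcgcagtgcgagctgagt
The gamma-activated site was found once in the window of Il12rb2 (TTCTCAGAA) and in 2 places in the window of 1 of the 3 starts of Il18r1 (TTCTGGGAA and TTCCCAGAA). Of all 32851 promoter windows, 8.3% held it, 7.81% the AP-1 motif, 3.98% the T-box motif and 0.39% the composite motif. The other three motifs were not among the letters of the 9 windows, which says nothing of sites elsewhere.

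Il12rb2, the chain of the IL-12 receptor that activates Stat4, was near the background in naive cells and rose with stimulation. Its log2 intensity was 4.48 and 4.04 in wild-type naive arrays and 4.85, 4.36 and 4.27 in Batf-/- naive arrays. The wild-type values at day 3 were 7.10, 6.68, 6.99 and 6.71, and those of Batf-/- cells 6.87, 6.58, 6.50 and 6.18. Day 3 arrays lay above naive arrays without overlap in each genotype, while the genotypes overlapped in both states. The rise was 2.61 ± 0.20 in wild type (6.09-fold, adjusted p = 2.62e-07) and 2.04 ± 0.18 in Batf-/- cells (4.11-fold, adjusted p = 6.69e-07). The wild-type naive mean of 4.26 lies among the lowest 40% of probe sets, so the fold in wild type is read as a lower bound. The order of the group means was wild-type naive, Batf-/- naive, Batf-/- day 3 and wild-type day 3, and the neighbours of one state did not differ beyond their spread.

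Il12rb1, the chain shared with the IL-23 receptor, rose less. It was at 5.81 and 5.97 in wild-type naive, 5.92, 6.12 and 6.47 in Batf-/- naive, 7.16, 7.15, 7.27 and 7.20 in wild-type day 3, and 7.35, 7.21, 7.31 and 7.25 in Batf-/- day 3 arrays. Naive and day 3 arrays did not overlap, and the genotypes overlapped in both states. The difference was 1.30 ± 0.12 in wild type (2.465-fold, adjusted p = 8.95e-07) and 1.11 ± 0.10 in Batf-/- cells (2.16-fold, adjusted p = 1.10e-06).

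The IL-18 receptor chains were already well above the background in naive cells. Il18r1, the ligand-binding chain, was at 9.72 and 10.04 in wild-type naive arrays and at 10.52, 10.58 and 10.58 in Batf-/- naive arrays. The day 3 values were 10.72, 10.86, 10.71 and 10.91 in wild-type and 10.98, 10.93, 10.89 and 10.88 in Batf-/- arrays. The groups followed each other without overlap from wild-type naive to Batf-/- naive to day 3, and the day 3 groups overlapped. Stimulation raised Il18r1 by 0.915 ± 0.09 in wild type (1.89-fold, adjusted p = 1.89e-06) and by 0.36 ± 0.08 in Batf-/- cells (1.28-fold, adjusted p = 0.00201).

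Il18rap, the accessory chain, was measured by 2 probe sets. The brighter one was at 7.68 and 8.14 in wild-type naive, 7.89, 8.27 and 8.66 in Batf-/- naive, 9.08, 9.15, 9.07 and 9.19 in wild-type day 3, and 9.53, 9.35, 9.29 and 9.33 in Batf-/- day 3 arrays. The naive groups overlapped, and at day 3 every Batf-/- array lay above every wild-type array. The rise was 1.22 ± 0.17 in wild type (2.32-fold, adjusted p = 4.66e-05) and 1.10 ± 0.15 in Batf-/- cells (2.15-fold, adjusted p = 3.54e-05), and the other probe set gave 1.53 ± 0.15 and 1.475 ± 0.135.

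The chains of the interferon gamma receptor parted. Ifngr1, the ligand-binding chain, was at 10.57 and 10.91 in wild-type naive, 10.96, 10.60 and 10.70 in Batf-/- naive, 11.31, 11.32, 11.35 and 11.37 in wild-type day 3, and 11.50, 11.51, 11.42 and 11.46 in Batf-/- day 3 arrays. It rose by 0.60 ± 0.10 in wild type (1.515-fold, adjusted p = 0.000286) and by 0.72 ± 0.09 in Batf-/- cells (1.65-fold, adjusted p = 1.90e-05). All day 3 arrays lay above all naive arrays, and the day 3 arrays of a genotype lay within less than 0.1 of each other. Ifngr2, the chain that brings Jak2, was at 8.10 and 8.03 in wild-type naive, 8.17, 7.90 and 7.81 in Batf-/- naive, 7.36, 7.38, 7.38 and 7.07 in wild-type day 3, and 7.01, 6.98, 7.01 and 7.18 in Batf-/- day 3 arrays. It fell by 0.765 ± 0.11 in wild type (1.70-fold, adjusted p = 7.53e-05) and by 0.91 ± 0.10 in Batf-/- cells (1.88-fold, adjusted p = 4.73e-06). Its other probe set fell by 0.38 ± 0.12 and 0.29 ± 0.11, with adjusted p = 0.0224 and 0.0496 from limma over all 45037 probe sets that are not controls.

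Il10ra, the chain that binds IL-10, rose almost alike in both genotypes. It was at 6.63 and 6.83 in wild-type naive, 6.98, 7.00 and 7.09 in Batf-/- naive, 8.67, 8.69, 8.71 and 8.70 in wild-type day 3, and 9.10, 8.92, 8.93 and 8.78 in Batf-/- day 3 arrays. In both states every Batf-/- array lay above every wild-type array, by a small distance compared with the step between the states. The rise was 1.96 ± 0.09 in wild type (3.90-fold, adjusted p = 1.48e-09) and 1.91 ± 0.08 in Batf-/- cells (3.76-fold, adjusted p = 4.785e-10), and the difference between these rises was -0.05 (95% interval -0.30 to 0.195). A dimmer probe set rose by 0.695 ± 0.16 and 0.90 ± 0.14, and the dimmest, with a mean of 3.27 over all arrays, was not called. For the mean of the 3 probe sets the rise was 0.96 in wild type and 0.965 in Batf-/- cells.

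The IL-6 receptor showed the largest change of the 9 genes. Il6ra was at 10.11 and 9.99 in wild-type naive arrays, 9.45, 9.70 and 9.55 in Batf-/- naive arrays, 6.65, 6.90, 6.60 and 7.14 in wild-type day 3 arrays, and 7.10, 7.01, 6.67 and 6.70 in Batf-/- day 3 arrays. Naive Batf-/- arrays lay below naive wild-type arrays, all day 3 arrays lay far below both, and the day 3 groups overlapped. The fall was -3.225 ± 0.16 in wild type (9.35-fold, adjusted p = 3.76e-09) and -2.70 ± 0.14 in Batf-/- cells (6.48-fold, adjusted p = 4.72e-09). A dimmer probe set of Il6ra gave -1.18 ± 0.11 and -0.93 ± 0.10, so the size of the fall differs by more than 1.5 times between probe sets while its direction does not. For the mean of both probe sets it was -2.203 in wild type and -1.81 in Batf-/- cells.

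Il6st, the gp130 chain, fell less than Il6ra. It was at 10.38 and 10.11 in wild-type naive, 9.84, 10.52 and 10.26 in Batf-/- naive, 8.91, 8.98, 8.85 and 8.96 in wild-type day 3, and 8.99, 8.74, 8.74 and 8.67 in Batf-/- day 3 arrays. Naive arrays lay above day 3 arrays without overlap, and the genotypes overlapped in both states. The fall was -1.32 ± 0.15 in wild type (2.50-fold, adjusted p = 7.53e-06) and -1.42 ± 0.13 in Batf-/- cells (2.68-fold, adjusted p = 1.12e-06). Of its 4 probe sets, 3 fell in both genotypes, with differences between -1.72 and -1.15 in wild type, and the fourth was at -0.02 and 0.05 and was not called.

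**Figure D2:**
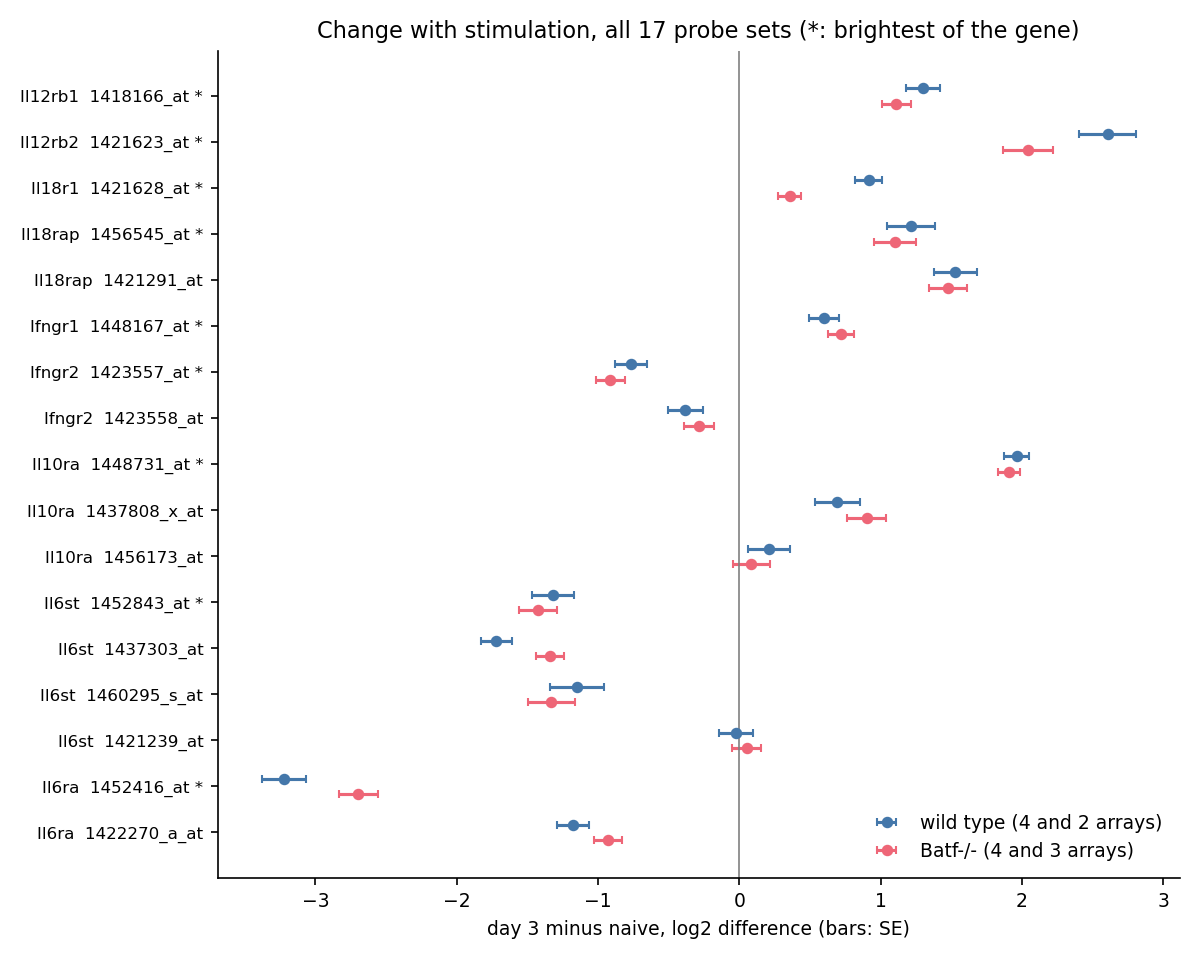
Change from naive to day 3 (log2 difference with SE) for all 17 probe sets in wild-type and Batf-/- cells, with a star at the brightest probe set of a gene. Of the 17, 8 rose and 7 fell in each genotype, and 1 probe set each of Il10ra and Il6st lay near 0.

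Counted over probe sets, 15 of 17 were called in each genotype, where 38.6% of all probe sets were called in wild type and 38.3% in Batf-/- cells. Between the genotypes, 1 of the 17 was called in naive arrays (0.739% of all probe sets), and none at day 3 (0.773%) or in the interaction described further on (0.306%). Several lists of marker genes of other cells were lower at day 3 than in naive arrays, while the CD4 T cell list was higher (4.99 to 5.21 against 4.67 to 4.87). The mean over 7 B cell markers went from between 6.4 and 7.78 in naive arrays to between 5 and 5.20 at day 3, that over 5 monocyte and macrophage markers from between 6.02 and 7.66 to between 4.69 and 4.97, and that over 5 NK cell markers from between 6.51 and 8.22 to between 4.48 and 4.77. Their part in the falls of Il6ra, Il6st and Ifngr2 was not tested. Batf-/- naive replicate 1 had the highest monocyte and neutrophil means and the lowest Il6ra (9.45) and Il6st (9.84) of the naive arrays.

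Between the genotypes, naive cells differed in Il18r1. Its level was 0.68 ± 0.09 higher in Batf-/- naive arrays (1.60-fold, limma adjusted p = 0.00357, n = 3 and 2), and all 3 Batf-/- arrays lay above both wild-type arrays. This was 1 call among 9 genes, where 1.08% of all genes were called, 0.813% higher and 0.264% lower in Batf-/- cells. The call was lost when the 5 naive arrays were fitted alone (adjusted p = 0.41), a fit in which 1 of 18194 genes was called, Batf itself. It remained without Batf-/- naive replicate 1 (0.70, adjusted p = 0.00557) and, at a smaller difference, without wild-type naive replicate 1 (0.52, adjusted p = 0.0379).

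Other receptor chains were not called in naive cells. Il6ra was 0.48 ± 0.165 lower in Batf-/- arrays (adjusted p = 0.216) and Il10ra 0.29 ± 0.09 higher (adjusted p = 0.1755), and the arrays of the 2 genotypes did not overlap for either. Such a separation was seen for 24.5% of all genes. Other probe sets differed from these values. For the mean of all probe sets Il6ra was at -0.27 and Il10ra at 0.125, the dimmer Il6ra probe set was at -0.07 and the second Il10ra probe set at 0. Il18rap was at 0.37 ± 0.18, Il12rb1 at 0.27 ± 0.12 and Il12rb2 at 0.23 ± 0.21, all higher in Batf-/- arrays, and Ifngr2 at -0.10 ± 0.12, Il6st at -0.04 ± 0.16 and Ifngr1 at 0.01 ± 0.11. A second Il6st probe set was at -0.50 ± 0.12 without overlap (adjusted p = 0.0781 over all probe sets). Single arrays moved several of these values by more than 1.5 times. Il18rap was at 0.14 without wild-type naive replicate 1, 0.60 without wild-type naive replicate 2, 0.56 without Batf-/- naive replicate 1 and 0.18 without Batf-/- naive replicate 3. Il12rb1 was at 0.125 without Batf-/- naive replicate 3, and Il12rb2 at 0.01 without wild-type naive replicate 2, 0.45 without wild-type naive replicate 1, and 0.05 when Batf-/- naive replicate 1 was left out. Il10ra was at 0.19 without wild-type naive replicate 1. None of these was called. The median of the 9 genes was 0.23, against 0 over all genes, and 4 of them had an unadjusted limma p under 0.05, as did 13.6% of all genes. The 95% intervals, not adjusted for the number of genes, reached from -0.22 to 0.25 for Ifngr1 and from -0.235 to 0.69 for Il12rb2.

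**Figure D3:**
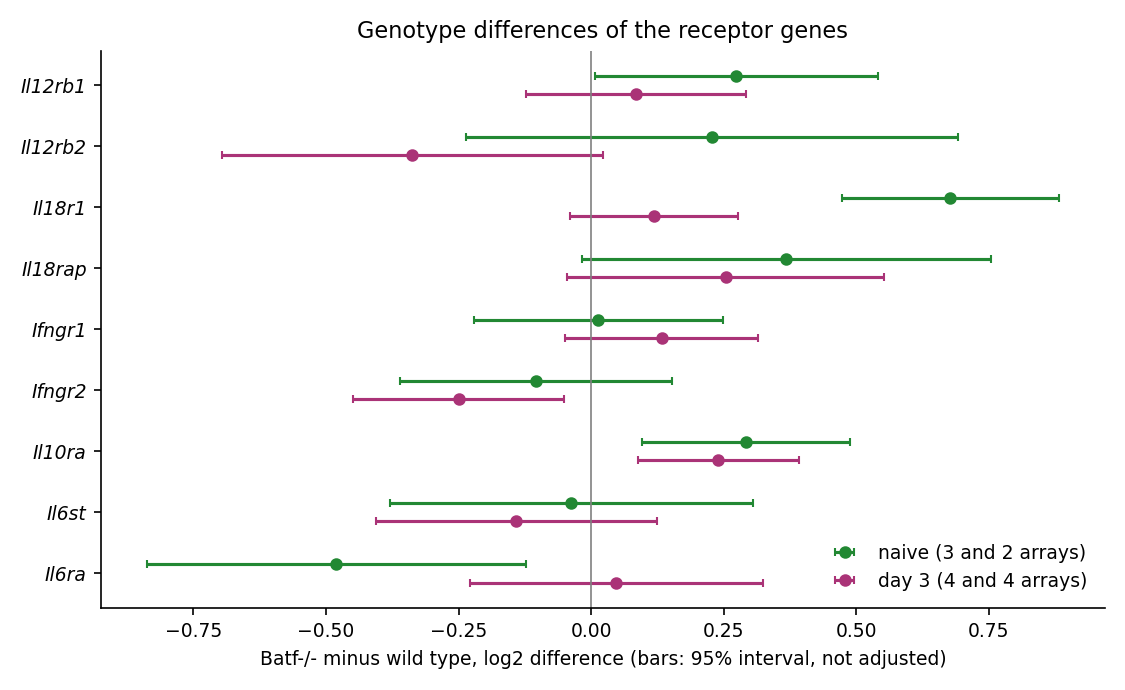
Batf-/- minus wild type for the 9 receptor genes, as log2 difference with its unadjusted 95% interval, in naive arrays and at day 3. In naive arrays Il18r1 had the largest difference (0.68), and at day 3 the estimates lay between -0.34 and 0.25.

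Some lists of marker genes of other cells were higher in naive Batf-/- arrays too, those of NK cells, B cells and erythroid cells. The neutrophil, monocyte and macrophage, dendritic cell, CD4 T cell, platelet, and stroma and endothelium lists overlapped between the naive genotypes, without a called gene. Of 5 measured NK cell markers 2 were called higher, Klra8 and Klre1, and the mean of the list was between 6.51 and 6.70 in wild-type and between 7.36 and 8.22 in Batf-/- arrays. Of 7 B cell markers 3 were called higher, with list means from 6.4 to 6.88 in wild-type arrays and from 7.33 to 7.78 in Batf-/- arrays. The B cell markers Cd79a, Cd79b and Pax5 overlapped between the naive genotypes, while Ms4a1, Cd22, Bank1 and Cr2 did not. The 1 measured erythroid marker of 3 was higher too. The share of all genes called higher in naive Batf-/- arrays was 0.813%. NK cells are known to express the IL-18 receptor. Ncr1 was at 4.84 and 5.04 in wild-type and at 7.13, 5.22 and 5.67 in Batf-/- naive arrays. Klra8 was at 4.59 and 4.02 against 5.67, 5.76 and 6.08, and Klre1 at 6.35 and 5.99 against 7.16, 7.99 and 7.47. Tyrobp was at 9.20 and 9.14 against 10.95, 9.23 and 10.01, and Fcer1g at 8.55 and 8.36 against 10.18, 8.59 and 8.91. For these last markers the nearest arrays of the genotypes were almost equal. All 5 measured NK markers separated the naive genotypes without overlap, as did 24.5% of all genes. The part of other cells in the Il18r1 difference was not tested.

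**Figure D4:**
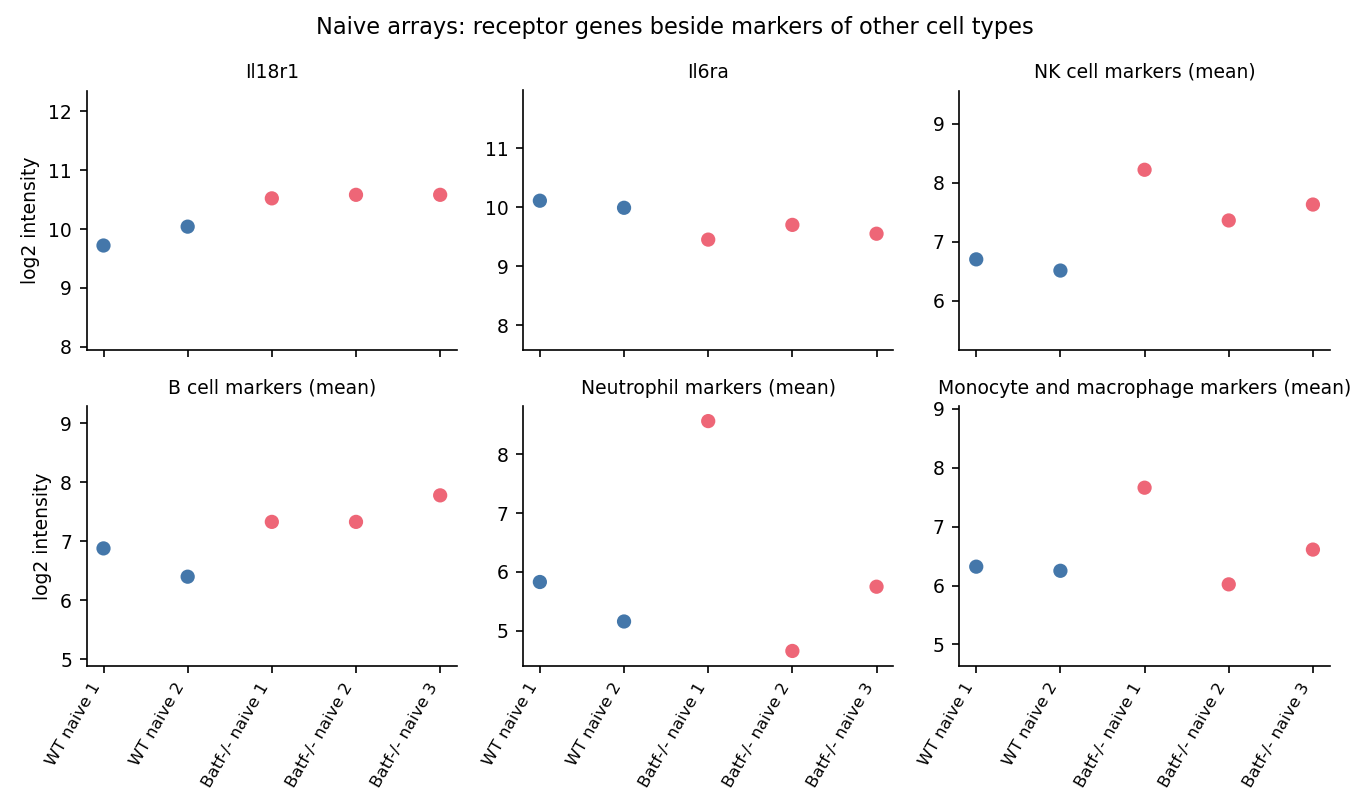
Log2 intensity of Il18r1 and Il6ra and means over marker lists of 4 other cell types in the 5 naive arrays, with the same span on every vertical axis. Il18r1 was nearly equal in the 3 Batf-/- arrays, among which the neutrophil mean ranged from 4.66 to 8.56 and overlapped with wild type. The NK cell mean was higher in all Batf-/- arrays (7.36 to 8.22) than in wild-type arrays (6.51 to 6.7). So was the B cell mean (7.33 to 7.78 against 6.4 to 6.88). The part of these cells in the Il18r1 difference was not tested.

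At day 3 no receptor gene was called between the genotypes, where 1.37% of all genes were, 0.665% higher and 0.709% lower in Batf-/- cells. By limma, 2 of the 9 had an unadjusted p under 0.05, where 12.6% of all genes had, Il10ra (0.24 ± 0.07, adjusted p = 0.141) and Ifngr2 (-0.25 ± 0.09, adjusted p = 0.25), and both were called in a fit with weights for array quality (adjusted p = 0.0379 and 0.027). With probe sets averaged per gene the differences were smaller, 0.13 for Il10ra (adjusted p = 0.423) and -0.135 for Ifngr2 (adjusted p = 0.583), and the other probe set of Ifngr2 was at -0.02. The others were Il12rb2 at -0.34 ± 0.17, Il18rap at 0.25 ± 0.14, Il6st at -0.14 ± 0.12, Ifngr1 at 0.13 ± 0.08, Il18r1 at 0.12 ± 0.07, Il12rb1 at 0.085 ± 0.10 and Il6ra at 0.05 ± 0.13. The arrays of the genotypes did not overlap for Il18rap, Ifngr1 and Il10ra, 3 of the 9 genes, where this held for 12.8% of all genes. The 95% interval of the difference reached from -0.70 to 0.02 for Il12rb2, from -0.045 to 0.55 for Il18rap and from -0.04 to 0.28 for Il18r1, so a missing call does not show that the genotypes were alike. The median of the 9 differences was 0.085, against 0.01 over all genes.

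The responses to stimulation were compared with an interaction term, the Batf-/- change minus the wild-type change. No receptor gene was called, where 0.649% of all genes were. The largest were Il12rb2 (-0.57 ± 0.27, adjusted p = 0.444), Il18r1 (-0.56 ± 0.12, adjusted p = 0.0642) and Il6ra (0.53 ± 0.21, adjusted p = 0.328), and Il18r1 and Il6ra had an unadjusted limma p under 0.05, as did 11.9% of all genes. In point estimates, the Batf-/- change amounted to 38.9% of the wild-type change for Il18r1, 78.3% for Il12rb2, 83.6% for Il6ra, 85.5% for Il12rb1 and between 90.6% and 119.8% for the others. For Il18r1 the smaller change goes with a higher start. Batf-/- arrays were 0.68 above wild type in naive cells and 0.12 above it at day 3. The wild-type naive mean rests on 2 arrays (9.72 and 10.04). The term for Il18r1 passed the threshold in 6 of 21 other fits, among them those without wild-type naive replicate 2 (-0.72, adjusted p = 0.0217) and without Batf-/- naive replicate 1 (-0.58, adjusted p = 0.0456), and was -0.40 without wild-type naive replicate 1 (adjusted p = 0.208).

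Several of the receptor genes lie beside relatives in the genome, which the gene order of RefSeq on GRCm38.p6 gives. On chromosome 1 the order is Il1r2, Il1r1, Il1rl2, Il1rl1, Il18r1 and Il18rap, all of the interleukin 1 receptor family, of which Il1rl1 was not analysed here. In naive cells Il1r1, the signalling receptor for interleukin 1, was higher in Batf-/- arrays as well. It was at 5.17 and 5.30 in wild-type naive and at 6.55, 6.35 and 6.89 in Batf-/- naive arrays, a difference of 1.365 ± 0.13 (adjusted p = 0.000372, and 0.283 with the naive arrays alone), while the day 3 means were 5.09 and 5.17 and were not called. Every naive Batf-/- array lay above all other arrays, and the interaction term was called (-1.28 ± 0.17, limma adjusted p = 0.00492). The NK and B cell list means given above were higher in the naive Batf-/- arrays too, and the part of these cells in the Il1r1 difference was not tested. The neighbours Il1r2 (0.26 ± 0.16) and Il1rl2 (-0.16 ± 0.225) were not called between naive genotypes, and Il1rl2 changed with stimulation by -2.08 ± 0.21 in wild type and -1.565 ± 0.19 in Batf-/- cells while its neighbours Il18r1 and Il18rap rose.

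On chromosome 16 the order is Ifnar2, Il10rb, Ifnar1 and Ifngr2. Ifnar2 and Ifnar1 form the receptor for type I interferons, and Il10rb is the partner of Il10ra. Ifnar2 rose with stimulation by 0.93 ± 0.08 in wild type and 0.655 ± 0.07 in Batf-/- cells, Il10rb by 0.295 ± 0.09 and 0.45 ± 0.08, and Ifnar1 by 0.315 ± 0.095 and 0.245 ± 0.08, all called. Ifngr2 was the member of this group that fell. None of the 4 was called between the genotypes in either state, where 1.37% of all genes were at day 3 and 1.08% in naive cells.

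**Figure D5:**
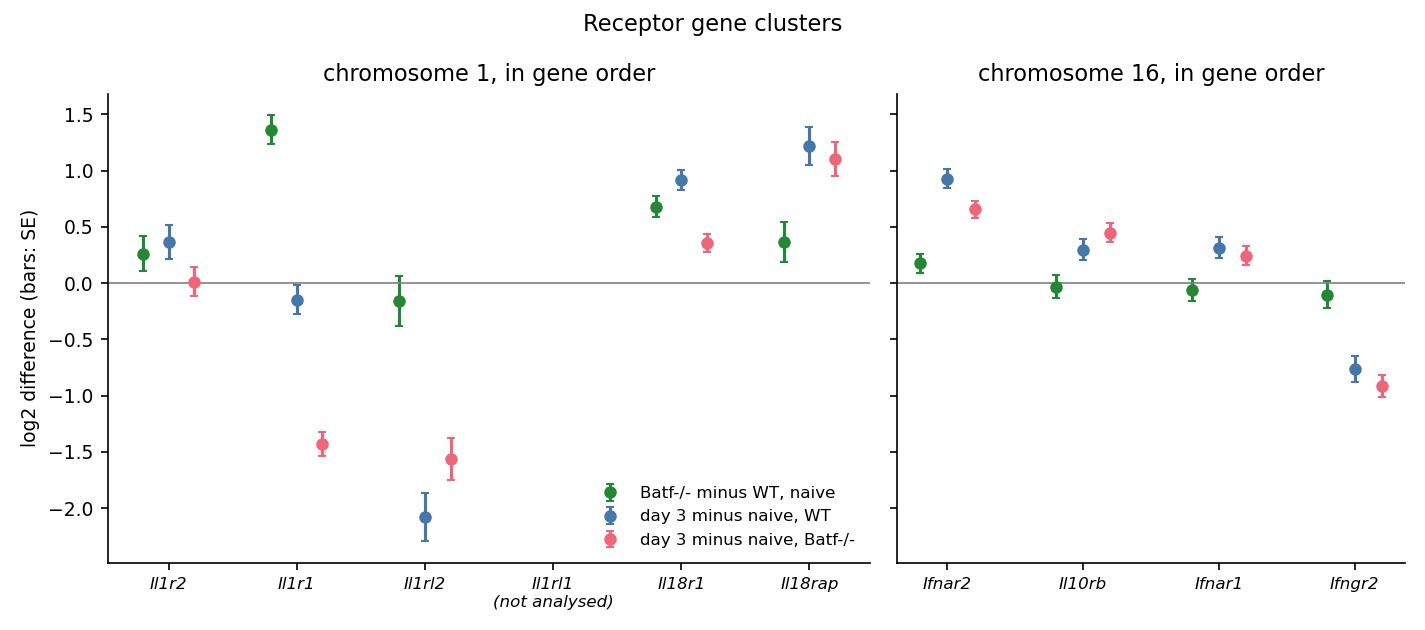
Log2 differences with SE for the receptor genes of both clusters in gene order, between naive genotypes and between day 3 and naive arrays of each genotype. Il1r1 (1.365) and Il18r1 (0.68) stood above 0 between naive genotypes, and Ifngr2 fell with stimulation where Ifnar2, Il10rb and Ifnar1 rose.

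Related receptors outside the 9 genes were taken from a list of 21 names, 18 of them measured. With stimulation 5 rose and 5 fell in each genotype (median -0.005 in wild type and 0.02 in Batf-/- cells, against 0.05 and 0.05 over all genes). Of all genes, 22.4% rose and 23% fell in wild type, and 23.8% rose and 23.2% fell in Batf-/- cells. Besides Ifnar2, the largest rises in wild type were those of Crlf2, a receptor chain for thymic stromal lymphopoietin (0.49, and 0.45 in Batf-/- cells), and Lifr, the gp130 partner for Lif (0.35, and 0.41 in Batf-/- cells). In Batf-/- cells they were those of Crlf2 and Il10rb. Besides Il1rl2, the largest falls were those of Il27ra, the gp130 partner for IL-27 (-1.53 ± 0.12 and -1.37 ± 0.10), Il1rap (-0.61 and -0.55) and, in Batf-/- cells, Il1r1 (-1.43). Between the genotypes none was called at day 3, where the largest difference was that of Il1rl2 (0.36, limma adjusted p = 0.438), near the background in both groups. Il1r1 was the 1 call in naive cells (list medians 0.07 at day 3 and -0.01 in naive cells). The shares of all genes called were 1.37% at day 3 and 1.08% in naive cells.

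Ligands of these receptors were given by 17 names, 15 measured, 6 of them among the lowest 40% of probe sets, Il10 and Il12b included, for which only the call and its direction are given. Ifng, Lif and Osm were called higher in Batf-/- cells at day 3 (0.33, 0.75 and 0.46), none was lower, and the median was 0.12. The call of Ifng was just under the threshold (limma adjusted p = 0.0498). Over all genes, 0.665% were called higher and 0.709% lower, and the median was 0.01. Ifng was also the 1 ligand called higher in naive Batf-/- cells (0.745 ± 0.095, adjusted p = 0.314 with the naive arrays alone), with levels of 5.70 and 5.90 in wild-type and 6.44, 6.66 and 6.54 in Batf-/- arrays (list median -0.03). The NK and B cell list means given above were higher in the same arrays, and the part of these cells in the naive Ifng difference was not tested. The share of all genes called higher in naive Batf-/- cells was 0.813%. With stimulation 4 rose and 2 fell in wild type, where 22.4% of all genes rose and 23% fell. They were led by Lif (1.28), Ifng (1.12) and the dim Il10 among the rises and Clcf1 (-1.05) and the dim Il12b among the falls. In Batf-/- cells 4 rose and 4 fell, where 23.8% of all genes rose and 23.2% fell. They were led by Lif (2.285), Osm (0.85) and Ifng (0.70), and by the dim Il12b, Clcf1 (-1.05) and Il18 (-0.95). The naive mean of Lif was 4.14 in Batf-/- cells, among the lowest 40% of probe sets, and 4.4 in wild type, close to them. The background thus bounds its rises and its interaction term. The interaction gave no call among the ligands, with Lif at 1.005 ± 0.24 (adjusted p = 0.0867).

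Of 22 kinases, STAT proteins and adaptors, 20 were measured and none was called between the genotypes. Of all genes, 1.37% were called at day 3 and 1.08% in naive cells, so few calls would be found in a list of this size. The largest differences were those of Stat3 at day 3 (-0.23, adjusted p = 0.144) and Jak1 in naive cells (-0.29, adjusted p = 0.311), with list medians of -0.075 and -0.12. With stimulation 4 rose and 9 fell in wild type, and 5 rose and 9 fell in Batf-/- cells. The shares of all genes that rose and fell were 22.4% and 23% in wild type, and 23.8% and 23.2% in Batf-/- cells. Stat2 (0.855 and 0.67) and Jak3 (0.83 and 0.63) rose in both, as did Irak2 (0.66 and 0.35) and Stat4 (0.37 and 0.41). Myd88, the adaptor of the IL-18 receptor (-1.01 and -0.86), Irf9 (-0.96 and -0.98) and Jak2, the kinase of Il12rb2 and Ifngr2 (-0.76 and -0.67), fell in both genotypes.

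Of 16 feedback inhibitors, all measured, Cish was the 1 call at day 3 (0.475 ± 0.11 higher in Batf-/- cells, median of the list -0.01), and none was called in naive cells (largest Socs2, 0.29, adjusted p = 0.684, median -0.06). The shares of all genes called were 1.37% at day 3 and 1.08% in naive cells. With stimulation 6 rose and 6 fell in each genotype. The shares of all genes that rose and fell were 22.4% and 23% in wild type, and 23.8% and 23.2% in Batf-/- cells. Socs2 (3.39 and 3.50), Cish (2.25 and 2.79) and Socs1 (0.78 and 0.83), which restrain cytokine receptor kinases, rose. Socs3, which binds to gp130 and limits IL-6 signals, fell (-1.81 ± 0.13 and -1.72 ± 0.12), and Usp18 (-1.06 and -0.715) and Socs5 (-0.98 and -0.87) fell as well.

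Genes known to be induced by interferon gamma were given by 24 names, 21 measured. In naive Batf-/- cells 3 were called higher and none lower, the GTPases Iigp1 (1.83 ± 0.27) and Igtp (0.59 ± 0.10) and Cd274, the ligand PD-L1 (0.37 ± 0.07), with a median of 0.29 against 0 over all genes. The shares of all genes called were 0.813% higher and 0.264% lower. With the naive arrays alone none of the 3 was called (limma adjusted p = 0.283, 0.539 and 0.707). The NK and B cell list means given above were higher in the same arrays, and the part of these cells was not tested. At day 3 none was called between the genotypes (largest Iigp1, 0.34, adjusted p = 0.563, median 0.06), where 1.37% of all genes were. With stimulation 11 rose and 7 fell in wild type and 8 rose and 7 fell in Batf-/- cells. The shares of all genes that rose and fell were 22.4% and 23% in wild type, and 23.8% and 23.2% in Batf-/- cells. Irf8 (1.22 and 0.95) and Tap1 (0.98 and 0.66) rose in both, Iigp1 in wild type (1.76) and Socs1 as given above. The chemokines Cxcl9 (-2.71 and -3.20) and Cxcl10 (-1.43 and -1.48) fell in both, as did Psmb10 (-0.54 and -0.415) and Cd274 (-0.455 and -0.84).

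Of 18 genes of the type 1 effector program, which IL-12 promotes, 17 were measured. At day 3, 4 were called higher in Batf-/- cells, Fasl (0.76), Prf1 (0.61), Tnf (0.465) and, just under the threshold, Ifng. Tbx21, which codes for T-bet, a transcription factor known to promote Il12rb2 and Il18r1 expression, was the 1 called lower (median 0.17). Over all genes, 0.665% were called higher and 0.709% lower, and the median was 0.01. Tbx21 was at 8.12, 8.08, 8.13 and 8.28 in wild-type and at 7.38, 7.25, 7.29 and 7.11 in Batf-/- day 3 arrays. The difference was -0.89 ± 0.14. In the same arrays Il12rb2 (-0.34 ± 0.17) and Il18r1 (0.12 ± 0.07) were not called. A link between Tbx21 and these receptor genes was not tested. In naive cells Ifng was the 1 call (median 0.25, against 0 over all genes), where 1.08% of all genes were called. With stimulation 6 rose and 2 fell in wild type, where 22.4% of all genes rose and 23% fell. They were led by Gzmb (6.14) and Fasl (2.385) above Ifng, and by Ccl5 (-2.05) and Prf1 (-0.87). In Batf-/- cells 7 rose and 5 fell, where 23.8% of all genes rose and 23.2% fell. They were led by Gzmb (5.67), Fasl (2.595) and Eomes (0.96), and by Ccl5 (-2.06), Cxcr3 (-1.19) and Ccl3 (-1.18).

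The IL-6 receptor can be shed from the surface by the protease Adam17, a step that RNA levels do not measure. Of 4 genes linked to shedding, Rhbdf2, a partner of Adam17, rose (0.38 and 0.30) and Adam10 fell (-0.355 and -0.34), Rhbdf1 fell in Batf-/- cells (-0.31), and Adam17 was at -0.10 and 0.04 without a call. None of the 4 was called between the genotypes, where 1.37% of all genes were at day 3 and 1.08% in naive cells. Rhbdf1 had the largest differences (0.11 at day 3, limma adjusted p = 0.761, and 0.57 in naive cells, adjusted p = 0.0651), with list medians of 0.04 and 0.07.

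The genes whose pattern was most like that of a receptor gene were taken by Pearson correlation of log2 values over the 13 arrays, which share the split into naive and day 3 arrays. Those most like Il18r1 were Cd200r1, an inhibitory receptor (r = 0.981), Igtp, from the interferon gamma list (0.965), and Rnf157 (0.964). The first-ranked genes for the others were 1700025G04Rik for Il12rb1 (0.996), Pld2 for Il12rb2 (0.99), Sin3b for Il18rap (0.99), Sod1 for Ifngr1 (0.995), Ppp4r2 for Ifngr2 (0.98), Cyb5b for Il10ra (0.995), Timp2 for Il6st (0.99) and Pnpla7 for Il6ra (0.997). The next were Sin3b and Zfas1, Glt8d1 and Haus8, Uap1l1 and Prr13, Nup37 and Cpt2, Cog3 and Eps15, Snx25 and Tubb2b, Sirt7 and Actn2, and Klf3 and Slfn8 in the same order, with r between 0.979 and 0.997.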

How the data were processed

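RNA of P14 CD8+ T cells was measured on 13 arrays in 4 groups of 2 to 4. The deposited values are probe set intensities on a linear scale, made with RMA (version not given), which corrects background, normalises arrays to each other and combines probes, per the submitters' processing notes. This compresses differences near the background. The intensities were converted to log2 here and not normalised again. Of 45101 probe sets, 34958 have 1 gene symbol in the platform table. The brightest probe set by its mean over the arrays stands for each of 18194 genes, and 64 control probe sets were left out of the fit of all probe sets. Means of 4 groups were fitted with limma 3.58.1 in R 4.3.3 (9 residual and 3.702 prior degrees of freedom), with two-sided moderated tests and Benjamini-Hochberg adjustment over all genes of a contrast. Precision is limited by how many arrays there are.

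The receptor genes, gene lists and tests were chosen with earlier results of these data known. All 9 receptor genes are named. From each list the called genes with the 3 largest differences in each direction are named, or the largest difference where none was called. For similar patterns the 3 genes with the highest correlation are named, among genes above the lowest 40% of probe sets (log2 4.35). Neighbouring receptor genes and the NK and B cell markers named were chosen after their values were seen. Alternatives were other scalings, filters, summaries, variance estimates, array weights, a replicate block, the compared groups alone and leaving out each array. No 2 arrays held identical values. The pipeline was tested on simulated data.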

Additional observations from a re-analysis of the deposited data

Results flagged for a closer look

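Single arrays stood apart from the other 3 of their group for Ifngr2 at day 3, and this in opposite directions in the genotypes. Wild-type day 3 replicate 4 was at 7.07, with the nearest other array at 7.36, and Batf-/- day 3 replicate 4 was at 7.18, with the nearest at 7.01. These were 2 of 18 combinations of a receptor gene with a day 3 group of 4 arrays, and chance flags about 1 in 20. The combinations share the same arrays and are not independent. The genotype difference of Ifngr2 at day 3 was -0.33 without the former (limma adjusted p = 0.111) and -0.30 without the latter (adjusted p = 0.267), against -0.25 with all arrays. The cause was not tested.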

How the results depend on the processing

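All 9 receptor genes remained called between naive and day 3 arrays of each genotype in all alternatives run, the 13 that left out 1 array included. Of 981 single receptor results under alternatives, 951 kept direction and side of the threshold, 10 passed it newly, 1 was lost and 19 changed sign. With array quality weights, 2 receptor genes were called at day 3, 3 in naive cells (with Il12rb1 and Il18rap) and 1 in the interaction. Batf-/- naive replicates 1, 2 and 3 had weights of 0.192, 0.498 and 2.52, so the mean of their group rested mostly on replicate 3. That array had the highest Il12rb1 (6.47) and Il18rap (8.66) of the naive arrays. With the compared groups alone, 0 were called in naive cells. For the interaction 1 was called, Il18r1, with quantile normalisation (-0.59), without the dim 40% of probe sets and with an intensity trend. Over all genes the interaction gave 125, 147 and 157 calls in these fits, in that order, and 542 with array weights. The main fit gave 118. The fit without Batf-/- naive replicate 1 called Il18r1 too, with 270 calls over all genes. Leaving out an array, the naive Il18r1 difference lay between 0.52 and 0.84, and where wild-type naive had 1 array left, it was assumed to vary like the other groups. The count over all genes ranged from 122 to 563 at day 3 and from 97 to 627 in naive cells in these fits, and was 1306 and 459 with array weights, 689 and 1 with the compared groups alone.

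Sign changes concerned results without a call. They were Ifngr1 in naive cells with median centring (-0.007) and array weights (-0.039), Il6st in naive cells with quantile normalisation (0.001) and array weights (0.033), and the interaction terms of Il10ra (0.009) and Il6st (0.043) for the mean of all probe sets. When arrays were left out, the range was -0.03 to 0.154 for Il6ra at day 3, -0.156 to 0.184 for Ifngr1 and -0.192 to 0.146 for Il6st in naive cells, and for the interaction -0.343 to 0.114 for Il18rap, -0.051 to 0.289 for Ifngr1, -0.157 to 0.051 for Il10ra and -0.287 to 0.051 for Il6st. The cause was not tested.

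Whether the replicate numbers pair the arrays is not known. Across genotypes, deviations of same-numbered arrays from their group means correlated between -0.17 and 0.10 at day 3. In naive arrays the values were -0.29 and -0.32. Such correlations cannot decide the question, because the group means rest on few arrays and the deviations within a group depend on each other. With the replicate block, 0 receptor genes were called at day 3, 1 in naive cells, 9 with stimulation in each genotype and 0 in the interaction, while the count over all genes fell to 125 at day 3, 87 in naive cells and 50 in the interaction. No depth can be given for arrays. Values near the background bound the differences of Il12rb2 and, among the listed genes, those of Il1rl2, Lifr, Lif and Cxcl9.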
